A study of Rattus norvegicus with 10 samples.

Results

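The neutrophil granule and antimicrobial genes described here are 9 rat genes, S100a8, S100a9, Camp, Ngp, Prtn3, Mpo, Ltf, RatNP-3b and Slpi, out of 13888 genes with a named mRNA probe on the array. They were chosen by name with earlier results of these data known, and the study lists S100a8, RatNP-3b and Slpi among its most up-regulated mRNAs. Counts over these genes are therefore a description. Each gene was sought on the array through the RefSeq accession of a probe. Of the 9 genes, 7 had such a probe, with 1 probe and 1 spot each, and 6 of these were bright enough to be tested. S100a9 and Mpo were not analysed here, because no probe carried an accession that the gene table assigns to them. The samples were total RNA from the lumbar enlargement of the spinal cord of male Sprague-Dawley rats that weighed 240 to 260 g. In the morphine tolerance group (MT, n = 5, rats 1 to 5), 10 μg of morphine in 10 μl had been given intrathecally 2 times a day for 7 days. In the normal saline group (NS, n = 5, rats 6 to 10), the same volume of saline had been given on the same schedule. Both groups therefore had repeated intrathecal injections, and per the methods the tissue was taken an hour after a further injection on the following morning. Each rat had 1 single-channel array, and the question was which of these genes differed between MT and NS.

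Neutrophils are short-lived white blood cells that are made in the bone marrow and carry proteins for killing microbes in preformed granules. Azurophil granules hold Mpo, Prtn3 and other serine proteases, specific granules hold Ltf, Camp and Ngp, and rat neutrophils also store alpha-defensins such as RatNP-3b. S100a8 and S100a9 form calprotectin in the cytosol, and Slpi is a secreted inhibitor that restrains the neutrophil proteases. Transcripts of granule proteins are made mostly by precursors in the marrow, a mature neutrophil holds little of several of them, and the healthy spinal cord contains few neutrophils outside its vessels.

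All values are quantile-normalized log2 intensities of a probe, so a difference of 1 is a doubling, and they are compared between rats and never between probes. The arrays came from 3 scans, with MT rats 1, 3, 4 and 5 on scan 1, MT rat 2 and NS rats 6, 7 and 10 on scan 2, and NS rats 8 and 9 on scan 3. Scan 2 was the only scan with both groups, so for the remaining arrays the group and the scan cannot be told apart. Scan 3 had the weakest signal, with 58.6% and 63.8% of spots well above background against 77.4% to 83.9% on the 8 other arrays. The dimmest spot well above background had a normalized value of 4.64 on NS rat 8 and 5.13 on NS rat 9, and of 2.80 to 3.31 on the others. Low values of NS rats 8 and 9 are therefore less well measured than those of the other rats.

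Among the 6 genes tested, S100a8, RatNP-3b and Slpi were higher in MT than in NS by the criteria of the study, a linear fold of more than 1.5 together with P under 0.05 before adjustment, and 0 were lower. Over all mRNAs tested, 1.60% were higher by these criteria (213 of 13344) and 0.989% were lower. For S100a8, RatNP-3b, Slpi and Camp every MT value exceeded every NS value, as they did for 2.26% of all mRNAs. With P adjusted by Benjamini-Hochberg over the 20255 RNAs in the fit, only Slpi among the 6 passed 0.05, a threshold that 0.0974% of mRNAs passed in the upward direction. Of the 6, Ngp and Prtn3 passed the filter on dim spots with 4 MT arrays and 1 NS array each, so no median fold change over the 6 is given. S100a8 and RatNP-3b were among the mRNAs the study picked from these arrays for RT-qPCR, so that choice was not independent of their differences on the arrays. By RT-qPCR the study reports a significant difference for RatNP-3b, and for S100a8 a trend that was not significant. The tissue was measured whole, so more cells of a type and more RNA per cell cannot be told apart.

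**Figure D1:**
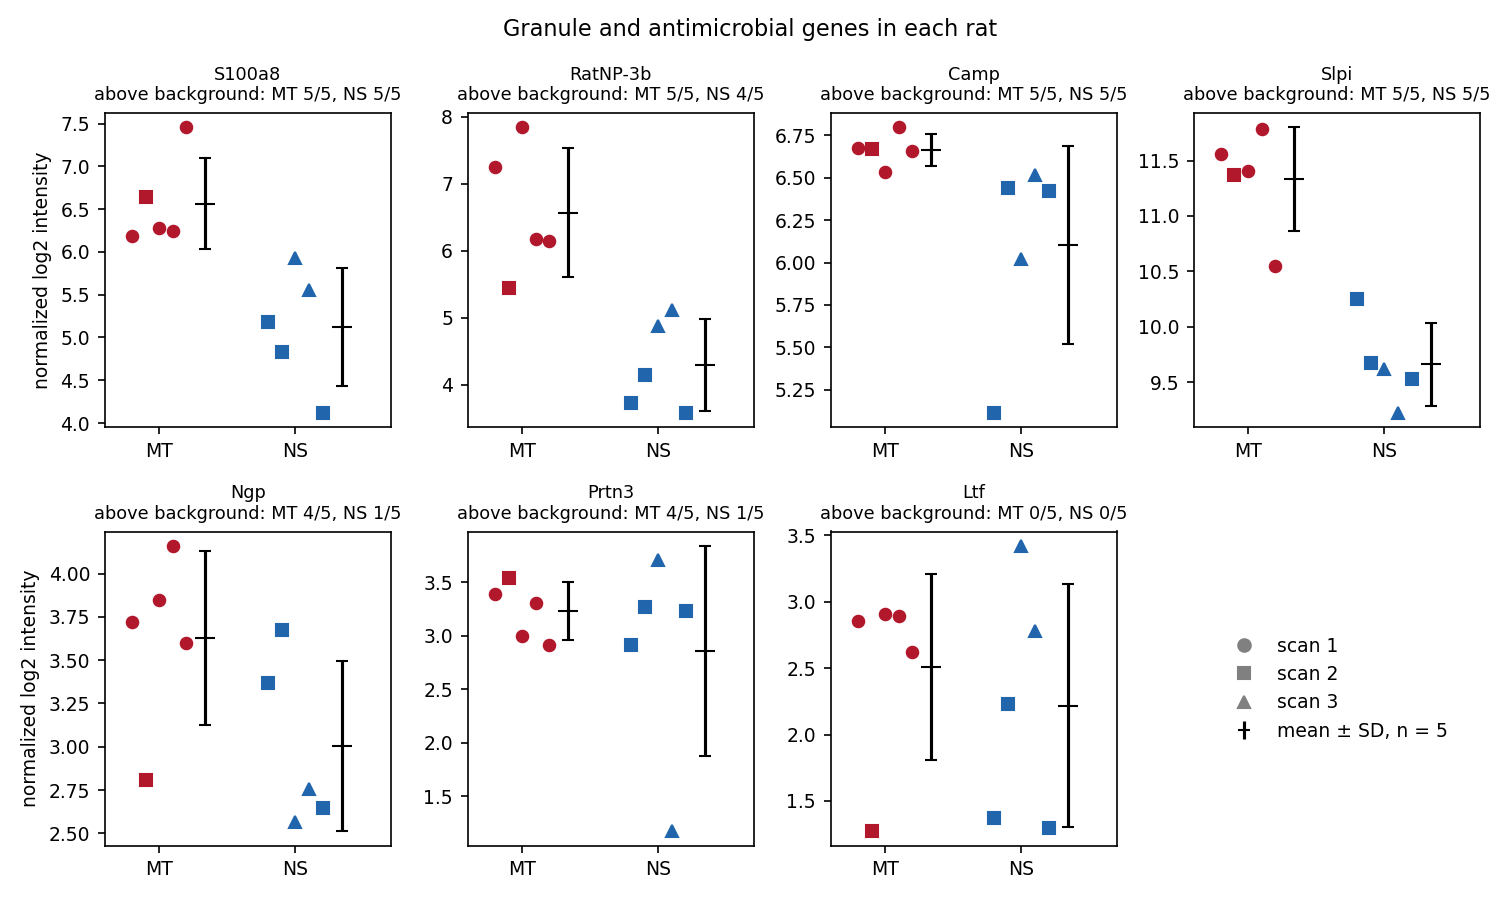
Normalized log2 intensity of the 7 genes with a probe, 1 panel per gene, for MT (red) and NS (blue) rats in order of rat number, with the scan as the symbol and the mean ± SD (n = 5) in black. The groups do not overlap for S100a8, RatNP-3b, Camp and Slpi, overlap for Ngp and Prtn3, and no Ltf value is well above background. The intensity axes do not start at 0.

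RatNP-3b encodes a neutrophil alpha-defensin, a small cationic peptide that permeabilizes microbial membranes, and with all 10 arrays it had the largest fold of the 6 genes. Within scan 2 the log2 fold change of S100a8 (1.93) exceeded that of RatNP-3b (1.62), and with normexp that of Slpi (1.59) exceeded that of RatNP-3b (0.96). It is annotated on chromosome 16 of GRCr8 from 77246811 to 77248977 (NM_001079898). The MT rats 1 to 5 had values of 7.25, 5.44, 7.84, 6.18 and 6.14, and the NS rats 6 to 10 had values of 3.73, 4.14, 4.87, 5.12 and 3.58. All MT values exceeded all NS values, MT rats 3 and 1 were highest, and MT rat 2 lay close to the top of the NS range. The mean was 6.57 ± 0.96 (SD, n = 5) in MT and 4.29 ± 0.68 (SD, n = 5) in NS, a 4.86-fold difference with a 95% interval of 2.33 to 10.1. The log2 fold change was 2.28 (standard error, SE, of 0.48, limma adjusted p = 0.0924). Its signal was detected well above background in 5 of 5 MT rats and 4 of 5 NS rats. The exception was NS rat 9, whose value was the highest of the NS group but lay under the dimmest detected spot of that array. Before normalization, NS rats 9 (11.5) and 8 (13.1) had the lowest intensities of all rats, against 15.8 to 24.2 in NS rats 6, 7 and 10. The top of the NS range therefore rests on the normalization of the weak scan 3 arrays. The log2 fold change was 2.75 without scan 3, 1.62 within scan 2, where MT rat 2 (5.44) was compared with NS rats 6, 7 and 10 (3.58 to 4.14), and 0.96 with normexp background correction.

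Of 10 other alpha-defensin genes, 8 were matched to a probe through its RefSeq accession, all in the same cluster on chromosome 16, and 6 of these were tested. They were listed by family, and which of them are made by neutrophils was not examined here. Defa7 and Defa10 were not matched by accession and were not analysed here, which does not mean that the array lacks them. Np4, another neutrophil defensin, lies between 77197061 and 77199713, and Defa5 lies between 77044994 and 77047318. For Np4 the MT rats 1 to 5 had values of 7.52, 7.05, 7.94, 6.53 and 6.63, and the NS rats 6 to 10 had values of 5.95, 6.14, 5.39, 5.56 and 6.07. Its groups did not overlap, and the log2 fold change was 1.31 (SE 0.28, limma adjusted p = 0.0928). For Defa5 the MT rats had values of 7.29, 7.01, 7.67, 6.69 and 6.87, and the NS rats had values of 6.35, 5.63, 5.59, 5.67 and 6.84. MT rat 4 lay below NS rat 10, and the log2 fold change was 1.09 (SE 0.28, adjusted p = 0.128). Both genes met the fold and P criteria, and in both, as in RatNP-3b, MT rat 3 was highest and MT rat 1 next. This order was not particular to defensins. The T and B cell marker Cd3e (9.80 and 8.89) and the NADPH oxidase gene Ncf1 (10.68 and 10.12), neither past the criteria, also had it. The criteria were not met by Defa6 (0.21), Defa8 (0.22), Defa9 (0.46) and Defa24 (-0.26), the values being log2 fold changes. For Defa6, the NS rats 8 and 9 of scan 3 had values of 3.77 and 4.26, whereas the 8 other rats of both groups lay between 5.08 and 5.76. For Defa9, well above background on 5 MT and 3 NS arrays, these 2 rats had values of 3.51 and 2.84. The 8 others lay between 4.54 and 5.29, so its difference rests on scan 3. Defa11 was well above background on 1 MT array and Defal1 on no array, so neither was tested. Because alpha-defensin genes are close in sequence, part of the signal of RatNP-3b, Np4 or Defa5 may come from one another, and this was not tested.

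Within scan 2, Np4 differed by a log2 fold change of 1.00 and Defa5 by 0.73, and Defa5 no longer met the criteria there. With the scan as a fixed block, which gives the same differences with errors from all 3 scans, Np4 did not meet them either. Without scan 3, the log2 fold changes were 1.08 for Np4 and 0.83 for Defa5, and both met the criteria.

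The annotated promoters of RatNP-3b and Np4 are shown because these genes rose together, and that of Defa9 because it is a neighbour in the cluster that did not meet the criteria. Each is 300 bases from RefSeq on GRCr8, from 250 bases before the annotated start to 50 after it, and capitals mark matches to TTGCNNAA, the core of sites bound by C/EBP factors, which act in granulocyte development. RatNP-3b is at chr16:77248928-77249227 on the minus strand, Np4 at chr16:77199593-77199892 on the minus strand, and Defa9 at chr16:77184018-77184317 on the plus strand.
RatNP-3b: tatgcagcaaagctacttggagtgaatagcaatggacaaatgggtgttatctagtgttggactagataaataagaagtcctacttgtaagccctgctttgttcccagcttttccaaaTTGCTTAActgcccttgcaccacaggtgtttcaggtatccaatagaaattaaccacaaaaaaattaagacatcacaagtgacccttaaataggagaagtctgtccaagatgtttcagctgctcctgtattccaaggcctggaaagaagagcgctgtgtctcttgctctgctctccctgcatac
Np4: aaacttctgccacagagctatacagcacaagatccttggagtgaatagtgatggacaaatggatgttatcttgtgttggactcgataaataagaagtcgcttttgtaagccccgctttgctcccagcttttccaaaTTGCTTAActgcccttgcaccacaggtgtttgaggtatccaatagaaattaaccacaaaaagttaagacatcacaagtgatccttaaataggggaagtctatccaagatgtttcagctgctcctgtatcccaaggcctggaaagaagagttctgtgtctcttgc
Defa9: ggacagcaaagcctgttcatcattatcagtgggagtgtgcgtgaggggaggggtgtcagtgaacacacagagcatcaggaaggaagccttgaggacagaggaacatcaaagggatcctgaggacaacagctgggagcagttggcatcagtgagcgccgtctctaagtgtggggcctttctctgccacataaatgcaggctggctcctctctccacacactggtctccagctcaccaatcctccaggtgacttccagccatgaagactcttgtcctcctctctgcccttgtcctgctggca
The windows of RatNP-3b and Np4 were identical in 81.6% of the columns of a global alignment (261 of 320), and RatNP-3b and Defa9 in 50.6%. The latter was near the level of RatNP-3b with Camp (49.2%) and Ngp (49.4%), genes outside the cluster. Both genes held 1 match, which began at -133 in RatNP-3b and at -114 in Np4 relative to the annotated start, and Defa9 held 0. The promoter of Ngp held 2 matches and that of Lyz2 held 1, whereas Camp, Prtn3, Ltf, Csf3r and Mcemp1 held 0. On both strands together, 10.6% of 33469 annotated promoters of this length held at least 1 match. The NF-kB type letters, GGG and TTTCC with any 2 bases between them, were in 1.53% of all promoters and in 0 of those named here. S100a8, Slpi and Defa5 had no entry in the promoter table. A match is a description of the letters and not evidence of binding.

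Slpi, the secreted leukocyte protease inhibitor, is made by neutrophils and macrophages as well as epithelia, and it inhibits elastase and cathepsin G. It is annotated on chromosome 3 from 173501573 to 173503822 (NM_053372). The MT rats 1 to 5 had values of 11.56, 11.37, 11.41, 11.78 and 10.55, and the NS rats 6 to 10 had values of 10.25, 9.68, 9.62, 9.22 and 9.53. The groups did not overlap, with MT rat 5 lowest in its group and NS rat 6 highest in its own. The mean was 11.33 ± 0.47 (SD, n = 5) in MT and 9.66 ± 0.37 (SD, n = 5) in NS. The difference was 3.19-fold, a log2 fold change of 1.67 (SE 0.24, 95% interval 1.13 to 2.22, limma adjusted p = 0.0425). The spot was well above background on all 10 arrays. Before normalization its intensity was 1545 to 4536 in MT and 319 to 1646 in NS, so that MT rat 5 was then below NS rat 6. The log2 fold change was 1.55 within scan 2, 1.51 without scan 3 and 1.59 with normexp, so its size changed little. The adjusted p was 0.310 with the scan as a random block and 0.147 without scan 3, and it passed 0.05 without MT rat 2, MT rat 5 or NS rat 6 but not without any of the 7 other rats (0.0522 to 0.179).

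S100a8 encodes a calcium-binding subunit of calprotectin, which sequesters metal ions from microbes and is also released as an alarm signal. It is annotated on chromosome 2 from 178464095 to 178465223 (NM_053822). Its values were 6.19, 6.64, 6.28, 6.25 and 7.46 in MT rats 1 to 5 and 5.18, 4.83, 5.92, 5.55 and 4.12 in NS rats 6 to 10. The groups did not overlap, MT rat 5 stood above the 4 other MT rats, and the highest NS value (rat 8) was 0.26 below the lowest MT value. Before normalization, the intensity of NS rat 8 (33.6) was below that of NS rats 6 (54.5) and 7 (37.3). The mean was 6.56 ± 0.53 (SD, n = 5) in MT and 5.12 ± 0.69 (SD, n = 5) in NS. S100a8 was 2.71-fold higher in MT, a log2 fold change of 1.44 (SE 0.35, 95% interval 0.65 to 2.23, limma adjusted p = 0.121). The spot was well above background on all 10 arrays, and without any 1 rat the log2 fold change lay between 1.19 and 1.64. Within scan 2, MT rat 2 (6.64) exceeded NS rats 6, 7 and 10 (4.12 to 5.18), a log2 fold change of 1.93. With normexp background correction, which shrinks differences of dim spots, it was 0.69 and the criteria were still met.

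Camp encodes the cathelicidin precursor, an antimicrobial peptide of specific granules, and lies on chromosome 8 from 118720184 to 118721998 (NM_001100724). Its values were 6.68, 6.67, 6.53, 6.80 and 6.66 in MT rats 1 to 5 and 5.11, 6.44, 6.02, 6.51 and 6.42 in NS rats 6 to 10. The groups did not overlap, but NS rats 7, 9 and 10 lay just under the lowest MT rat, and NS rat 6 was far below them. Before normalization, NS rats 8 (36.9) and 9 (39.6) had the lowest intensities, against 52.1 in NS rat 6, 87.6 in NS rat 10 and 102.3 in NS rat 7. The mean was 6.67 ± 0.09 (SD, n = 5) in MT and 6.10 ± 0.59 (SD, n = 5) in NS. The log2 fold change was 0.56 (SE 0.24, limma adjusted p = 0.290), a 1.48-fold difference that missed the fold criterion. It met both criteria without scan 3 (0.67) and without NS rat 7, 9 or 10 (0.64 to 0.67), and it was 0.32 without NS rat 6.

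The remaining granule genes were at or near the limit of detection. Ngp, the neutrophilic granule protein of the cystatin superfamily, lies on chromosome 8 from 119272605 to 119275972 and was detected well above background in 4 of 5 MT rats and 1 of 5 NS rats. Its values were 3.72, 2.81, 3.85, 4.16 and 3.60 in MT rats 1 to 5 and 3.37, 3.67, 2.56, 2.76 and 2.65 in NS rats 6 to 10. The groups overlapped, and MT rats 1, 3 and 4 exceeded the highest NS value. The log2 fold change was 0.63 (SE 0.29, limma adjusted p = 0.312), and it was -0.42 within scan 2, where MT rat 2 had the lowest MT value. It met the criteria without MT rat 2 (0.83), NS rat 6 (0.72) or NS rat 7 (0.79).

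Prtn3, the azurophil serine protease proteinase 3, lies on chromosome 7 from 10472750 to 10482037 and was likewise detected in 4 of 5 MT rats and 1 of 5 NS rats. Its values were 3.39, 3.54, 3.00, 3.31 and 2.91 in MT rats 1 to 5 and 2.91, 3.27, 3.70, 1.17 and 3.23 in NS rats 6 to 10. The groups overlapped, NS rat 8 was highest and NS rat 9 stood below all other rats. Before normalization, the intensity of NS rat 8 (4.33) was under that of every rat but NS rat 9 (2.34). The log2 fold change was 0.37 (SE 0.41, limma adjusted p = 0.673) and -0.05 without NS rat 9. Ltf, the iron-binding lactoferrin of specific granules, was not well above background on any of the 10 arrays, where its values ran from 1.27 to 2.91 in MT and from 1.29 to 3.42 in NS, and no fold is given. For Ltf, as for Ngp and Prtn3, the arrays set only a weak limit on a difference.

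**Figure D2:**
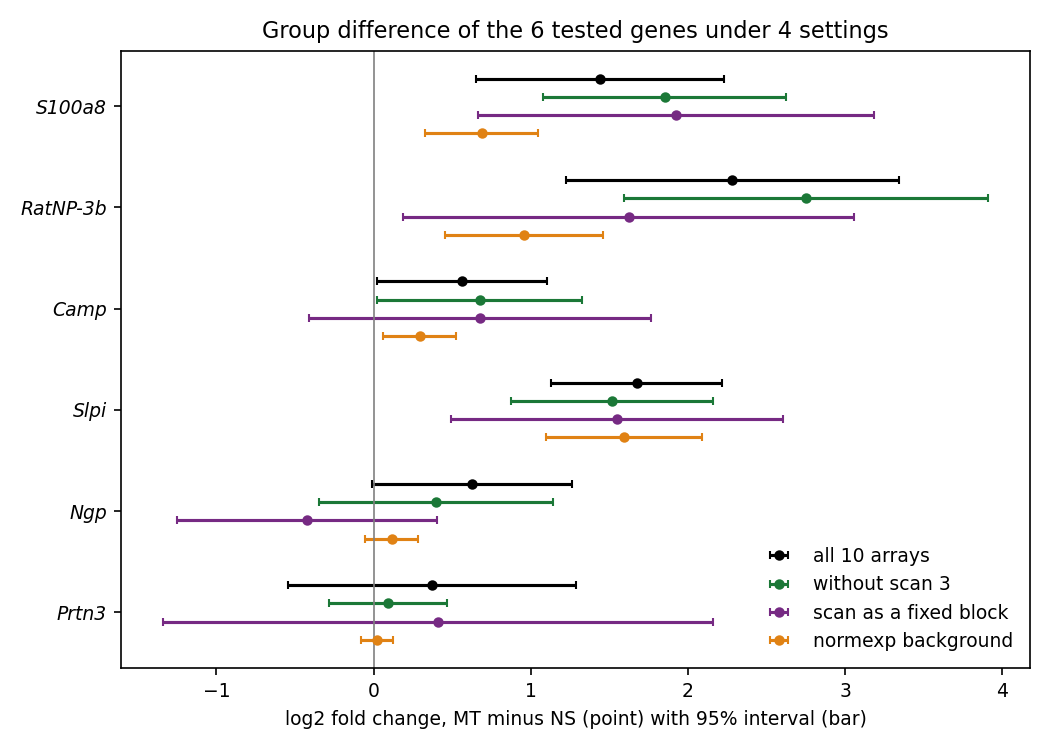
Log2 fold change of MT minus NS (points) with its 95% interval (bars) for the 6 tested genes, from limma with all 10 arrays, without scan 3, with the scan as a fixed block and with normexp background correction. RatNP-3b, Slpi and S100a8 lie above 0 in all 4 settings, with RatNP-3b between 0.96 and 2.75, whereas the interval of Prtn3 includes 0 in all of them and Ngp changes sign with the scan as a block.

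Of a wider list of 60 other granule and neutrophil genes, 45 were matched to a probe through its RefSeq accession and 37 were tested. The list was chosen with earlier results of these data known, and the study lists Np4 and Mmp9 among its most up-regulated mRNAs. Counts over the list are therefore a description. Its alpha-defensins were taken by family, whether or not neutrophils make them. The 15 unmatched genes were not analysed here and may have probes under accessions that the gene table does not hold. Defa7, Slpil2 and Slpil3 are among them, and the study names all 3 among the mRNAs measured on these arrays, so the counts below leave out genes that the array holds. By the fold and P criteria 8 of the 37 were higher in MT, 0 were lower and 29 did not pass, against 1.60% of mRNAs higher and 0.989% lower. The number higher was 6 when detection on all 10 arrays was required, 5 within scan 2 alone and 3 with the scan as a fixed block. In limma, 0 of the 37 had an adjusted p under 0.05, and 0 did with the methods’ test. Because 10 of the 37 were well above background on fewer NS than MT arrays, no median over the 37 is given. For 4 genes all MT values exceeded all NS values, as they did for 2.26% of all mRNAs. The genes that rose were Np4, Defa5, Mmp9, Lyz2, Csf3r, Mcemp1, Stfa2l1 and Csta.

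Of the azurophil genes, Ctsg (cathepsin G) was well above background on 3 MT arrays and 0 NS arrays and Bpi on no array, so neither was tested. Prss57, a further serine protease of this granule, was detected on all arrays and had a log2 fold change of 0.06 (SE 0.18, limma adjusted p = 0.894). No tested azurophil gene met the criteria, Prtn3 included.

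Of the 9 tested genes of specific and gelatinase granules, Mmp9 and Lyz2 met the criteria. Mmp9, the gelatinase that degrades basement membrane and one of the mRNAs the study picked for RT-qPCR, had values of 7.85, 7.99, 5.94, 8.64 and 6.94 in MT rats 1 to 5 and of 5.94, 6.15, 6.71, 6.29 and 4.76 in NS rats 6 to 10. MT rat 3 lay inside the NS range and the 4 other MT rats above it, and the log2 fold change was 1.503 (SE 0.52, limma adjusted p = 0.209). By RT-qPCR, for which Mmp9 was picked from these arrays, the study reports a significant difference in the same direction. Lyz2, a lysozyme that macrophages and microglia also make, had values of 16.09, 15.86, 16.30, 15.71 and 15.68 in MT and of 15.66, 15.28, 15.12, 14.86 and 14.89 in NS. Its groups did not overlap, by a margin of 0.03, and the log2 fold change was 0.77 (SE 0.18, adjusted p = 0.105). Within scan 2 it was 0.58 and no longer met the criteria. Lcn2, the siderophore-binding lipocalin that astrocytes also produce, had a log2 fold change of -0.24 (adjusted p = 0.582), and the 6 other genes of this group lay between -0.09 and 0.27.

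Slpil2 and Slpil3, relatives of Slpi, and Stfa2 were not matched by accession and were not analysed here. Among the 4 other inhibitors of proteases that were tested, Stfa2l1 and Csta, cystatin-type inhibitors of cysteine proteases, met the criteria with log2 fold changes of 0.80 (SE 0.33, limma adjusted p = 0.278) and 0.74 (SE 0.20, adjusted p = 0.151). Both were well above background on 5 MT arrays and 3 NS arrays. Stfa2l1 no longer met the criteria without MT rat 2, 4 or 5 or NS rat 7, 9 or 10 (0.60 to 0.83), and Csta did not without NS rat 9 (0.58) or without scan 3 (0.45). Serpinb1a, an inhibitor of neutrophil elastase and its relatives, had values of 12.98 to 13.17 in MT and 13.17 to 13.84 in NS. All MT values were under all NS values, and the log2 fold change of -0.51 (SE 0.12, adjusted p = 0.108) missed the fold criterion.

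Of 8 tested surface receptors and proteins of neutrophil traffic, Csf3r and Mcemp1 met the criteria. Csf3r, the receptor for granulocyte colony-stimulating factor, had values of 8.48, 8.53, 7.95, 8.87 and 8.65 in MT rats 1 to 5 and of 7.64, 7.33, 7.79, 7.69 and 7.49 in NS rats 6 to 10. The groups did not overlap, and the log2 fold change was 0.91 (SE 0.16, limma adjusted p = 0.0636), with 1.04 within scan 2 and 1.01 without scan 3. Mcemp1, a membrane protein of myeloid cells, lay between 7.49 and 8.19 in MT and between 6.96 and 7.44 in NS, with a log2 fold change of 0.68 (SE 0.14, adjusted p = 0.0928). Without scan 3 it was 0.54 and missed the fold criterion. The chemokine receptor Cxcr2 (0.64, SE 0.50, adjusted p = 0.541) and the integrin subunits Itgam (-0.10) and Itgb2 (-0.12), which other myeloid cells share, did not pass.

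None of the 5 tested subunits of the NADPH oxidase, which makes superoxide in phagocytes, met the criteria, and their median log2 fold change was -0.10. None of the 4 transcription factors did either, with Cebpe, which drives the specific granule genes, at 0.15 (SE 0.30) and Gfi1 at 0.11 (SE 0.61). Cebpe was well above background on 5 MT and 2 NS arrays and Gfi1 on 5 MT and 3 NS arrays, so both differences are weakly measured. Cebpa had a log2 fold change of 0.50 (SE 0.17, limma adjusted p = 0.204) and Spi1 one of -0.40 (SE 0.18, adjusted p = 0.316). These are factors of several myeloid lineages, and Spi1 is also expressed by microglia.

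**Figure D3:**
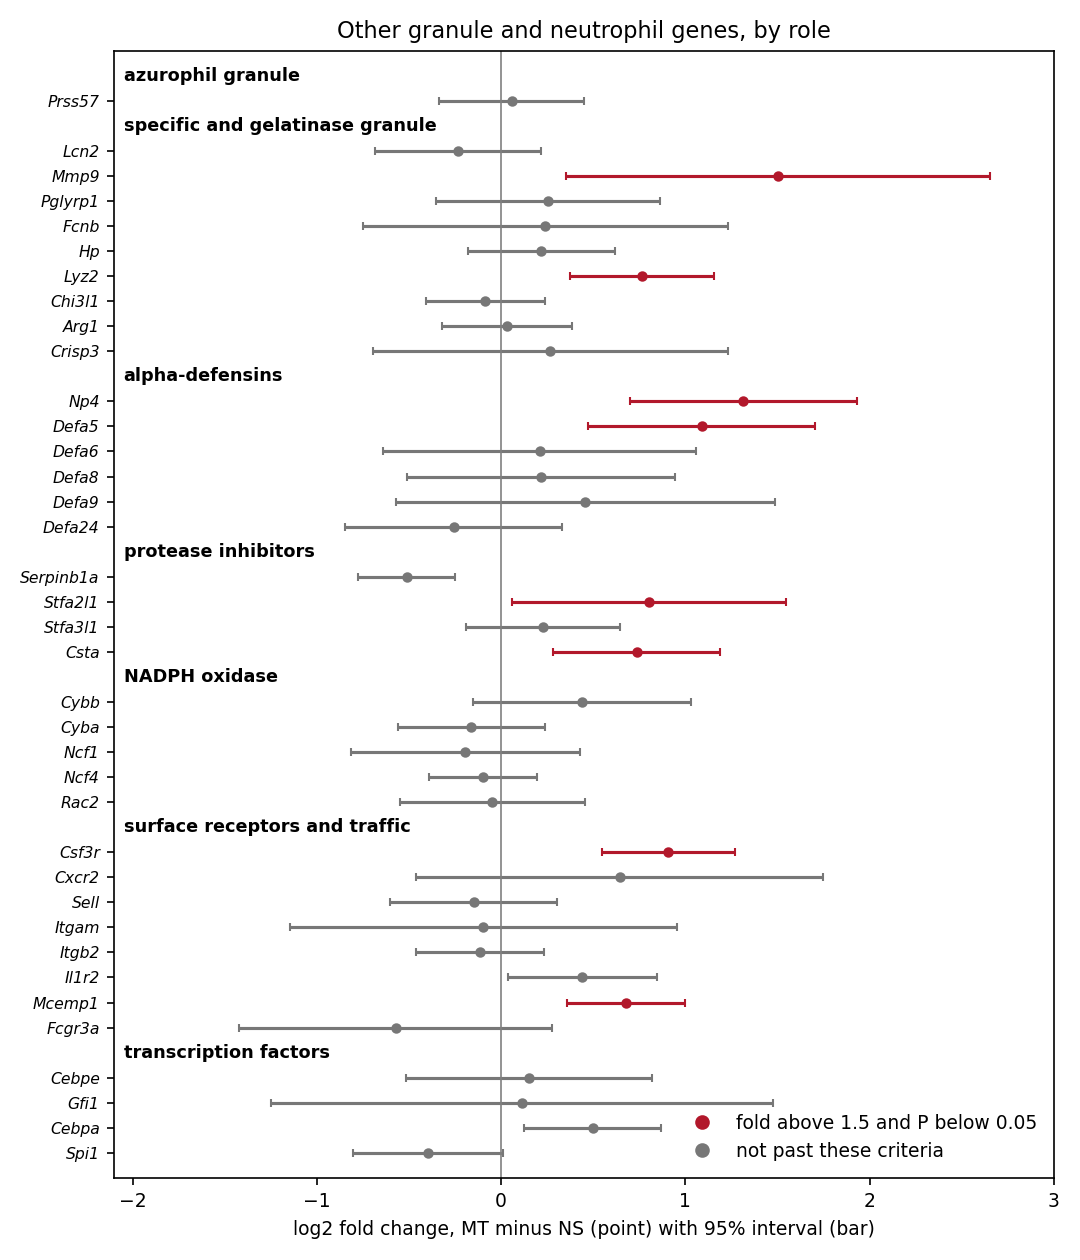
Log2 fold change of MT minus NS (points) with its 95% interval (bars) for the 37 tested genes of the wider list, ordered by role, with genes past the fold and P criteria in red and the rest in grey. The 8 red genes all lie above 0, from 0.68 (Mcemp1) to 1.503 (Mmp9), and none of the NADPH oxidase subunits or transcription factors is among them.

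The 11 genes that met the criteria, 3 of the 9 and 8 of the wider list, did not order the MT rats alike. MT rat 3 was the highest MT rat for 4 of them (RatNP-3b, Np4, Defa5 and Lyz2) and the lowest for 4 (Csf3r, Mcemp1, Mmp9 and Stfa2l1). It was also the highest MT rat for genes that did not meet the criteria, such as Cd3e and Ncf1. MT rat 4 was the highest for 4 (Slpi, Csf3r, Mmp9 and Csta), MT rat 5 for S100a8 and Stfa2l1, and MT rat 2 for Mcemp1. In MT rat 5, S100a8 was at its highest (7.46) while Slpi was at its lowest in the group (10.55). These orders are a description of 5 rats and were not tested.

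**Figure D4:**
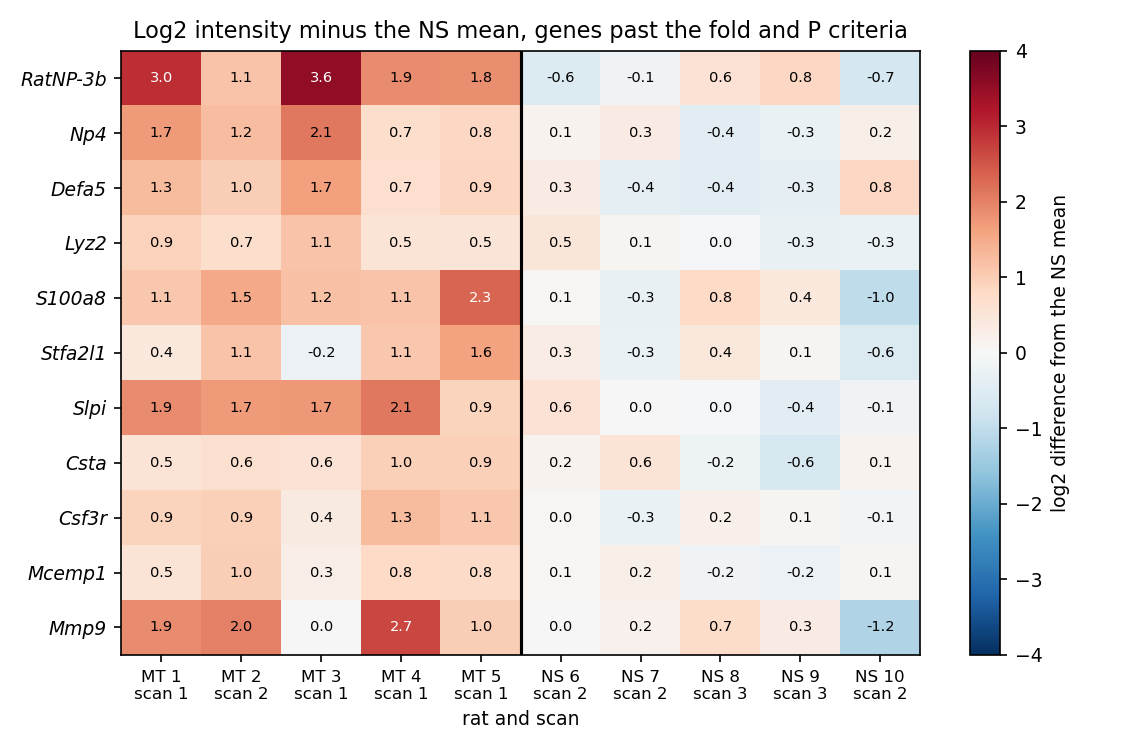
Log2 intensity of each rat minus the NS mean of the gene, for the 11 genes past the fold and P criteria (rows) in the 10 rats (columns, with the scan), where red is above and blue below the NS mean. The defensins and Lyz2 are strongest in MT rats 3 and 1, whereas Mmp9 and Csf3r are strongest in MT rat 4 and weak in MT rat 3. The genes were chosen for their group difference, so the contrast between the MT and NS columns is not a result.

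By scan, 4 of the 6 genes met the criteria without scan 3, Camp being added, where 2.13% of all mRNAs were higher, and 4 had MT values that all exceeded the NS values, as 7.17% of mRNAs did. Within scan 2 alone, MT rat 2 lay above all 3 NS rats for S100a8, RatNP-3b, Camp, Slpi and Prtn3, 5 of the 6 genes, and the same held for 26.2% of all mRNAs. For Ngp it lay below NS rats 6 and 7. A comparison on 1 MT array leaves out the spread between MT rats.

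Markers of other cells were read on the same arrays. Of 8 neutrophil marker genes, 5 were matched and 3 were tested, of which Csf3r was higher and Cxcr2 and Il1r2 (0.44, limma adjusted p = 0.276) were not past the criteria. All 3 are also in the wider list. Because Cxcr2 was well above background on 5 MT and 2 NS arrays, their mean level is not compared between the groups. Of the defining markers, Mmp8 was well above background on 0 of the 10 arrays and Fpr1 on 2, both from MT rats, and neither was tested. Erythrocyte markers, which report on blood in the tissue, gave 0 of 6 genes past the criteria, with a mean level of 7.02 to 7.52 in MT and 7.04 to 7.33 in NS. Of 3 platelet markers 0 passed, and of 4 monocyte and macrophage markers only Mrc1 (0.63, adjusted p = 0.0971) was higher. Of 7 microglial markers 0 were higher and 2 were lower, Tmem119 (-1.24, adjusted p = 0.0555) and Gpr34 (-0.63, adjusted p = 0.0413), and the list's mean level was 11.98 to 12.34 in MT and 12.40 to 12.78 in NS. For T and B cells 1 of 5 markers was lower, and for neurons, motor neurons, oligodendrocytes, astrocytes and endothelium 0 of 5, 2, 4, 4 and 3 passed, with the markers of oligodendrocytes, an abundant cell type of the spinal cord, at a mean level of 15.46 to 15.82. The part that these cell types have in the granule gene differences was not tested.

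**Figure D5:**
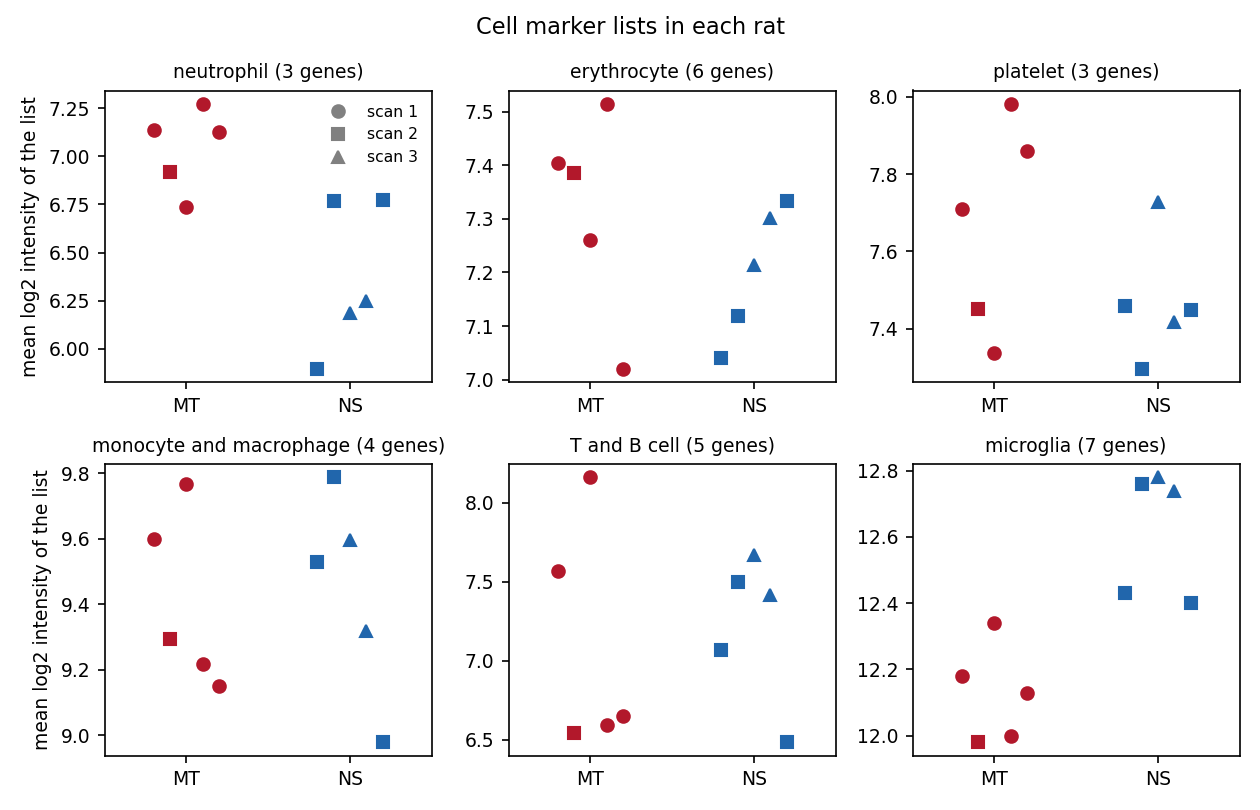
Mean log2 intensity of 6 lists of cell markers in each MT (red) and NS (blue) rat, 1 panel per list, with the scan as the symbol. The neutrophil list includes Cxcr2, well above background on 5 MT and 2 NS arrays, so its contrast between the groups is not a result. The erythrocyte list overlaps between groups, and the microglia list is lower in every MT rat. The intensity axes do not start at 0.

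Over the 10 arrays, the genes whose level followed the mean of the 6 tested genes most closely (each scaled by its own SD) were Adgrl3 (Pearson r = 0.938), Gja5 (0.937), Fam110d (0.932), Akr1b8 (0.926) and Crem (0.919), out of 12426 genes compared. After subtraction of each group's mean, the closest were Il21 (0.953), Bglap (0.933), Tinag (0.889), Slc8a2 (0.887) and Zkscan3 (0.880). No gene was in both sets, and none was in the wider list of granule genes. Ngp and Prtn3, near the limit of detection and passed by the filter mainly through MT arrays, had the same weight in this mean as the other genes. The 10 arrays share 3 scans and the genes were picked as the highest of many, so these values are a description only.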

How the data were processed

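Total RNA of 10 rats was measured on 1 array each. The authors extracted spots with Agilent Feature Extraction 11.0.1.1 and deposited linear, background-subtracted intensities per array, together with outlier and detection flags. They also deposited their own log2 values after quantile normalization. From the scanner intensities (lowest 1.71), log2 values were quantile normalized over 42136 non-control spots (limma 3.58.1, R 4.3.3, data.table version 1.17.8). Spots marked as outliers were dropped, and the spots and probes of an RNA were averaged. An RNA was tested if at least 5 arrays detected over 50% of its spots well above background and each group had at least 2 values. MT was compared with NS by limma over 20255 RNAs with Benjamini-Hochberg adjustment. The study's criterion of 1.5 was read as a linear fold. Symbols and positions are those of RefSeq on GRCr8, which named 14274 of 15323 mRNA probes, and positions are of genes, not probes. The filter can leave out genes low in both groups, and quantile normalization can shift dim spots on arrays of weak signal.

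All 9 genes, the genes of the wider list past the criteria and representatives of each role were named, with 5 genes most alike in level by each measure. Defa9 as a promoter to show, the remaining genes named with values and the comparison of MT rat orders were chosen after values were seen. The members and lists were chosen with earlier results of these data known. The alternatives were 75th percentile scaling, normexp with an offset of 50 (on the median signals, since the mean signal was not used here), the deposited log2 table, other filters, the methods' test, a variance trend, array weights, scans as blocks or left out, outlier spots kept, single probes, a log2 reading of the criterion, exact permutation over 252 assignments, and leaving out each rat. The deposited table correlated with the values used at r = 0.9956 to 0.9999 on each array. No pair of arrays was identical. The steps were tested on simulated arrays. Promoters were aligned with Biopython 1.88 in Python 3.11.15, and figures drawn with matplotlib 3.10.9.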

Additional observations from a re-analysis of the deposited data

Results flagged for a closer look

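In 30 groups of 5 rats, 1 value stood apart by Dixon's criterion, and chance alone gives about 1 in 20. It was Ltf in MT rat 2, with a normalized log2 intensity of 1.27 against 2.62 to 2.91 in the 4 other MT rats. MT rat 2 is the only MT rat of scan 2, and the Ltf spot was not well above background on any array.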

How the results depend on the processing

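No paired analysis was possible because the rats are numbered 1 to 5 in MT and 6 to 10 in NS and share no number. S100a8, RatNP-3b and Slpi kept their direction and stayed past the fold and P criteria in all alternatives run on their log2 fold change. RatNP-3b was not tested when detection on all 10 arrays was required, and 2 of the 9 genes met the criteria there. Of the 9 genes, 3 met the criteria, against 5 with 75th percentile scaling (Camp and Ngp added), 2 when the criterion was read on the log2 scale (S100a8 lost) and 3 to 5 without each rat in turn (5 without NS rat 7). The number past an adjusted p of 0.05 was 1, against 0 with no filter, with the scan as a fixed or random block, without scan 3, in scan 2 alone and with the methods' test, 2 with array weights (RatNP-3b added), and 0 to 1 without each rat. The number with every MT rat above every NS rat was 4, and 3 to 5 in the alternatives. In the wider list 8 genes met the criteria, against 5 with normexp, 3 with the scan as a fixed block, 5 in scan 2 alone and 1 when the criterion was read as a log2 fold change above 1.5. Without scan 3 it was 8 again, but without Csta and Mcemp1.

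Signs turned for Ngp (-0.42 with the scan as a fixed block and in scan 2 alone), for Prtn3 (-0.048 without NS rat 9, with a range of -0.048 to 0.58 without each rat) and for Prss57 (-0.21 without scan 3, -0.15 with array weights, -0.014 without MT rat 2, -0.046 without NS rat 8 and -0.044 without NS rat 9, with a range of -0.046 to 0.14). The cause was not tested. For 16 genes followed through 25 alternatives, 354 of 395 results kept their direction and their side of the criteria, 23 fell short, 10 newly passed and 8 turned. The dim spots of Ngp, Prtn3 and Ltf, and the weak signal of scan 3, limit what these arrays show.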
